A study of Homo sapiens with 2 samples.

Results

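The aminoacyl-tRNA synthetases are 37 genes named by symbol in the deposited gene tables, out of 23686 gene symbols in all. The list holds 19 cytosolic enzymes, 16 mitochondrial enzymes, and KARS and GARS, whose genes serve both compartments. They were listed by symbol, with no threshold on a measured value, although earlier results of these data were known when the list was made. The mitochondrial enzyme for aspartate is not on the list and was not analysed here, so the counts, medians and sums of the mitochondrial group leave it out. Poly(A) RNA was sequenced from A427, an established line of human non-small cell lung carcinoma whose cells grow attached and also as spheres in suspension. The floating group was 1 library of sphere-forming cells and the adherent group was 1 library of attached cells, both of the same line, grown in medium with fetal bovine serum. The labels give the genotype of both as WT, while the series title describes the cells as CTNNB1-mutated, and no other treatment is named.

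Each synthetase joins an amino acid to its matching tRNA, using ATP, and so sets which amino acid each codon receives. The enzymes fall into class I and class II, which have unrelated catalytic folds. All are encoded in the nucleus, and the mitochondrial set is imported to serve the organelle's own ribosomes. In mammalian cells several cytosolic synthetases sit in a multi-synthetase complex. Many cytosolic synthetase genes are targets of ATF4, the transcription factor made when amino acids are short or the endoplasmic reticulum is stressed.

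The floating library held 27148842 gene-assigned reads and the adherent library 26384670. At least 1 CPM (counts per 1000000 reads) in one library was reached by 13131 genes, and all 37 synthetases were among them. Every log2 ratio below is floating over adherent on scaled counts, and each 95% interval is exact and binomial, for counting error alone. With 1 library per group there was no replicate, so no test was made and no spread between cultures is known. Of the epithelial markers, EPCAM was at 582 TPM (transcripts per 1000000, scaled for gene length) in floating and 615 TPM in adherent cells. Keratin genes KRT8 and KRT18 were 1.84-fold and 1.85-fold higher in floating cells, KRT19 had 22 reads in floating and 8 reads in adherent cells, and CDH1 had a log2 ratio of -0.39 (interval -0.52 to -0.26). Of 5 mesenchymal markers 4 reached 1 CPM in one library, and all 4 had intervals below 0, with log2 ratios from -0.75 (COL1A1) to -0.07 (VIM). Intervals lay below 0 for 25% of all tested genes. The lung lineage markers SFTPC and SCGB1A1 had 0 reads in either library, a count that allows at most 0.111 CPM in floating and 0.114 CPM in adherent cells. SFTPB had 1 read in floating and 0 reads in adherent cells, NKX2-1 had 13 reads in floating and 3 reads in adherent cells, and NAPSA had 21 reads in floating and 29 reads in adherent cells. Of 7 leukocyte and endothelial markers, 2 reached 1 CPM in one library. PTPRC had 121 reads in floating and 159 in adherent cells (log2 ratio -0.44, interval -0.79 to -0.09). VWF had 44 reads in floating and 14 in adherent cells (log2 ratio 1.57, interval 0.71 to 2.59).

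Synthetase transcripts were mostly higher in floating cells, by small amounts. Of the 37 members, 32 had ratios above 0, and the median log2 ratio was 0.19, a 1.14-fold difference, beside -0.001 over all tested genes. Where a call needed a 1.2-fold difference and an interval on one side of 0, 14 members were higher in floating cells and 0 were lower. The same rule called 12.3% of all tested genes higher and 12.2% lower, and 11.7% each way among genes of at least 10 CPM, which 34 of the members reached. Counting intervals lay above 0 for 26 members and below 0 for 2, beside 25.9% and 25% of all tested genes, or 29.3% and 28.3% of those of at least 10 CPM. None of the 37 was as much as 1.5-fold apart in either direction. Of all tested genes, 3.31% were at least 1.5-fold higher and 2.84% lower, and 1.29% were at least 2-fold higher and 0.754% lower. In bulk RNA, a change in every cell and a change in the share of cells in some state cannot be told apart.

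**Figure D1:**
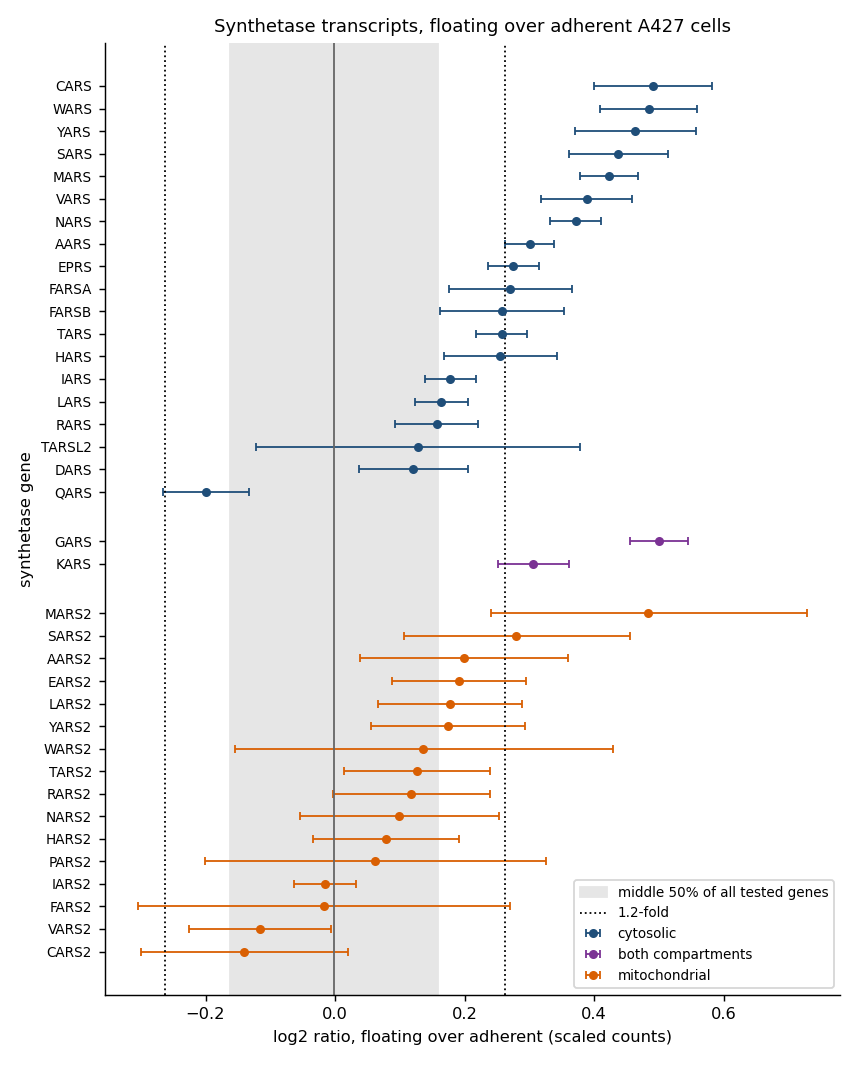
Log2 ratio of floating over adherent for each synthetase (x axis) by gene (y axis), with 95% counting intervals, grouped by compartment. The shaded band is the middle 50% of all tested genes and the dotted lines mark 1.2-fold; 10 of 19 cytosolic enzymes lie past the right-hand line and QARS alone of them lies below 0.

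The cytosolic enzymes were higher more widely than the mitochondrial ones. Of 19 cytosolic members, 18 had ratios above 0, with 17 intervals above 0, 1 below and a median log2 ratio of 0.27. By the 1.2-fold rule 10 of them were higher. Of 16 mitochondrial members, 12 had ratios above 0, with 7 intervals above 0, 1 below and a median of 0.12, and 2 passed the 1.2-fold rule. The difference of these medians, cytosolic minus mitochondrial, was 0.15, and it is a description, since the enzymes are not replicates. Of all tested genes, 25.9% had intervals above 0 and 25% below, and 12.3% were higher by the 1.2-fold rule. The mitochondrial members had fewer reads, 20283 in floating cells against 111202 for the cytosolic ones, which widens their intervals. DARS, with a log2 ratio of 0.12 and 2406 reads in floating cells, had an interval above 0. RARS2, with 0.12 and 1181 reads, did not. TPM summed over the cytosolic enzymes was 2831 in floating and 2412 in adherent cells, a 1.17-fold difference. For the mitochondrial enzymes the sum was 554 TPM in floating and 547 TPM in adherent cells, with IARS2 making up 158 TPM and 165 TPM of it. These sums are not on the scale of the ratios. The median log2 ratio of all tested genes was -0.05 on TPM, against -0.001 on scaled counts.

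GARS, the glycyl enzyme of both compartments, had the largest ratio of all 37. It had 9858 reads and 289 TPM in floating cells, against 6751 reads and 211 TPM in adherent cells, and was 1.42-fold higher (interval 1.37 to 1.46). KARS, the lysyl enzyme of both compartments, stood at 250 TPM (6151 reads) in floating and 209 TPM (4820 reads) in adherent cells, 1.24-fold higher (1.19 to 1.28). Both of these shared genes therefore lay above the median of either single-compartment group.

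Among enzymes of the cytosol alone, those for cysteine, tryptophan, tyrosine, serine and methionine were farthest above 0. CARS (cysteine) was at 74.7 TPM with 2377 reads in floating and 55.3 TPM with 1639 reads in adherent cells, 1.41-fold higher (log2 ratio 0.49, interval 0.40 to 0.58). WARS (tryptophan), which is also known as an interferon-induced gene, was at 108 TPM with 3530 reads in floating and 79.6 TPM with 2445 reads in adherent cells, 1.40-fold higher (1.33 to 1.47). YARS (tyrosine) was at 58.2 TPM with 2273 reads in floating and 43.6 TPM with 1597 reads in adherent cells, 1.38-fold higher (1.29 to 1.47). The intervals of these 3 overlap, so counting error alone leaves their order unresolved.

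SARS (serine) was at 138 TPM with 3332 reads in floating and 106 TPM with 2384 reads in adherent cells, 1.35-fold higher (interval 1.28 to 1.43). MARS, the methionyl enzyme that charges both initiator and elongator tRNA, was at 267 TPM with 9715 reads in floating and 206 TPM with 7021 reads in adherent cells, 1.34-fold higher (log2 interval 0.38 to 0.47). The exons of MARS overlap those of DDIT3, the gene for the stress factor CHOP, on the opposite strand. DDIT3 had 3606 reads in floating and 2418 reads in adherent cells and was itself 1.45-fold higher, and the sources used here do not give the use of strand in counting. The part of such overlap in the ratio of MARS was not tested. Exons of WDR25 overlap WARS and exons of S100PBP overlap YARS, also on opposite strands, with log2 ratios of 0.18 and -0.18 for those neighbours.

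Further cytosolic enzymes passed the 1.2-fold rule by less. VARS, the valyl enzyme, was at 69.4 TPM in floating and 54.9 TPM in adherent cells, with a log2 ratio of 0.39. NARS (asparagine), at 341 TPM in floating and 272 TPM in adherent cells, was 1.29-fold higher and was the most abundant synthetase transcript in the floating library. AARS (alanine) was at 298 TPM in floating and 250 TPM in adherent cells, 1.23-fold higher (log2 interval 0.26 to 0.34). These enzymes span both structural classes, VARS being class I and NARS and AARS class II.

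The last pair inside the 1.2-fold rule were EPRS and FARSA. EPRS, a fused enzyme for glutamate and proline, was at 182 TPM in floating and 156 TPM in adherent cells, with a log2 ratio of 0.28. FARSA, the alpha subunit of the phenylalanyl enzyme, was at 91.1 TPM in floating and 78.0 TPM in adherent cells, with a log2 ratio of 0.27. Just outside it were 3 genes: FARSB, TARS and HARS.

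FARSB, the beta subunit that works with FARSA, was at 73.3 TPM in floating and 63.4 TPM in adherent cells, with a log2 ratio of 0.258. TARS (threonine), at 334 TPM in floating and 290 TPM in adherent cells, had a log2 ratio of 0.257. HARS (histidine), at 83.9 TPM in floating and 73.0 TPM in adherent cells, had one of 0.255. The subunits FARSA and FARSB, which form a single enzyme, thus stood on either side of the rule with nearly the same ratio.

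Smaller excesses were seen for the enzymes of isoleucine, leucine, arginine and aspartate. IARS was at 193 TPM in floating and 176 TPM in adherent cells, with a log2 ratio of 0.18 (interval 0.14 to 0.22). LARS, which is also known as a leucine sensor of the mTORC1 pathway, was at 163 TPM in floating and 151 TPM in adherent cells, with a log2 ratio of 0.16 (0.12 to 0.21). RARS was at 163 TPM in floating and 151 TPM in adherent cells, with a log2 ratio of 0.16 (0.09 to 0.22). All 3 are class I enzymes of the multi-synthetase complex, and their intervals lie above 0 and below 1.2-fold. DARS, the aspartyl enzyme of that complex, was at 84.8 TPM in floating and 80.6 TPM in adherent cells, with a log2 ratio of 0.12 (0.04 to 0.21).

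QARS, the glutaminyl enzyme, was the one cytosolic member with a ratio below 0. It had 3529 reads and 101 TPM in floating cells, against 3926 reads and 119 TPM in adherent cells, and was 1.15-fold lower (log2 ratio -0.20, interval -0.27 to -0.13). TARSL2, a threonyl enzyme related to TARS, was the least abundant cytosolic member, at 6.83 TPM with 283 reads in floating and 6.46 TPM with 251 reads in adherent cells. Its log2 ratio of 0.13 had an interval from -0.12 to 0.38, so no difference was detectable at this depth.

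**Figure D2:**
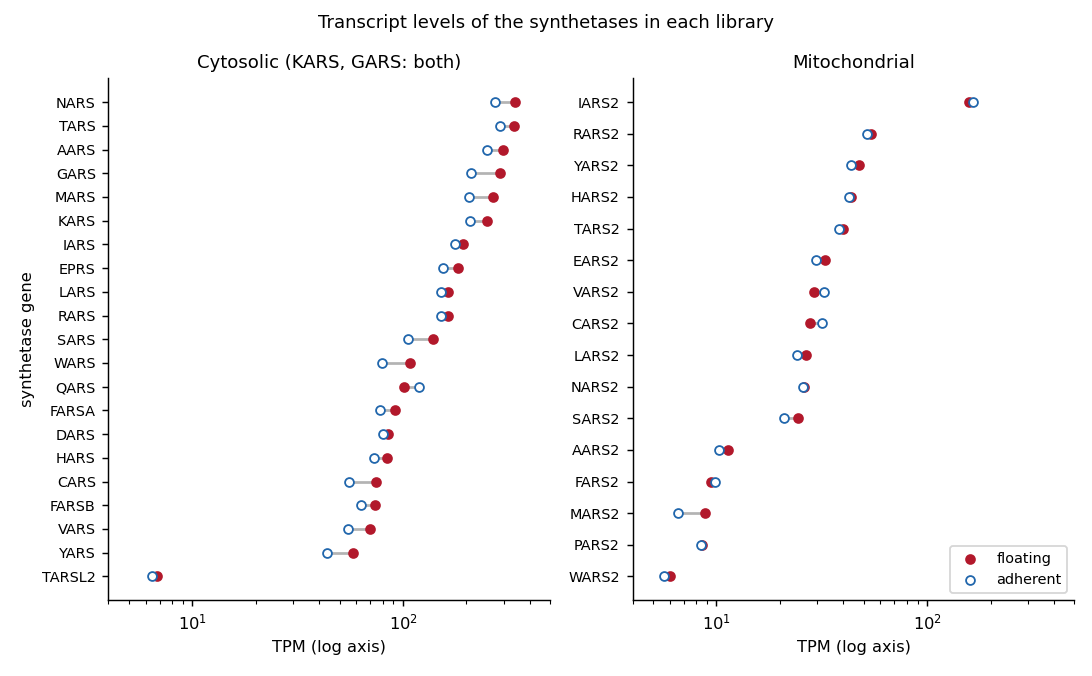
TPM of each synthetase (log x axis) in the floating library (filled red) and the adherent library (open blue), by gene, for cytosolic enzymes with KARS and GARS (left) and mitochondrial enzymes (right). In 15 of 16 mitochondrial genes the level is under 60 TPM in both libraries, IARS2 being the exception, while 20 of the 21 other genes are above 40 TPM in both.

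Mitochondrial transcripts stood at lower levels, with a median of 27.2 TPM in floating and 27.7 TPM in adherent cells, against 108 TPM and 106 TPM for cytosolic ones. MARS2, which charges the tRNA that starts mitochondrial translation, had the largest ratio of the group and was 1.40-fold higher. It had 342 reads and 8.85 TPM in floating cells, against 237 reads and 6.54 TPM in adherent cells, so its interval is wide (1.18 to 1.66). SARS2, the seryl enzyme, was at 24.5 TPM with 609 reads in floating and 20.9 TPM with 486 reads in adherent cells, 1.21-fold higher (1.08 to 1.37). Exons of MRPS12, a mitochondrial ribosomal protein gene with a log2 ratio of 0.39, overlap SARS2 on the opposite strand, and the part of that overlap in the ratio was not tested.

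The enzymes AARS2, EARS2, LARS2, YARS2 and TARS2 had intervals above 0 without reaching 1.2-fold. AARS2 (alanine) was at 11.4 TPM in floating and 10.3 TPM in adherent cells, and EARS2 (glutamate) at 32.9 TPM in floating and 29.8 TPM in adherent cells. LARS2 (leucine) was at 26.5 TPM in floating and 24.2 TPM in adherent cells, and YARS2 (tyrosine) at 47.5 TPM in floating and 43.5 TPM in adherent cells. TARS2 (threonine) was at 40.1 TPM in floating and 38.1 TPM in adherent cells. Their log2 ratios ran from 0.13 to 0.20. Exons of UBFD1, with 3313 reads in floating and 3247 in adherent cells, overlap EARS2 on the opposite strand, and exons of TMEM151B, with 26 reads in floating and 38 in adherent cells, overlap AARS2.

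For 8 mitochondrial members the interval included 0. WARS2, RARS2, NARS2, HARS2 and PARS2, the enzymes of tryptophan, arginine, asparagine, histidine and proline, had log2 ratios from 0.06 to 0.14. WARS2 was at 6.05 TPM in floating and 5.67 TPM in adherent cells, and PARS2 at 8.55 TPM in floating and 8.47 TPM in adherent cells. RARS2 was at 54.2 TPM in floating and 51.6 TPM in adherent cells, NARS2 at 25.9 TPM in floating and 25.7 TPM in adherent cells, and HARS2 at 43.7 TPM in floating and 42.8 TPM in adherent cells. The level of each of these 5 was slightly higher in floating cells, within counting error. FARS2 (phenylalanine), at 9.40 TPM in floating and 9.83 TPM in adherent cells, had a log2 ratio of -0.02 (interval -0.30 to 0.27). IARS2 (isoleucine), the most abundant mitochondrial synthetase transcript, had 7086 reads and 158 TPM in floating cells, against 6943 reads and 165 TPM in adherent cells. Its log2 ratio of -0.02 had a narrow interval, -0.06 to 0.03, and turned to 0.01 once a trend over gene length was removed. CARS2 (cysteine) was at 27.9 TPM with 620 reads in floating and 31.8 TPM with 662 reads in adherent cells, with a log2 ratio of -0.14 (-0.30 to 0.02). VARS2 (valine) was the member of this group with an interval below 0, at 29.01 TPM with 1320 reads in floating and 32.6 TPM with 1386 reads in adherent cells (log2 ratio -0.12, interval -0.23 to -0.01).

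Cytosolic and mitochondrial enzymes of the same amino acid were then set against each other, in 17 pairs, with EPRS and FARS2 each in 2. The cytosolic ratio was the higher in 15 pairs, and the exact conditional interval of the difference, which covers counting error only, lay above 0 in 8 and below 0 in 0. For cysteine the log2 ratio of CARS exceeded that of CARS2 by 0.63 (interval 0.45 to 0.82). For valine VARS exceeded VARS2 by 0.50 (0.37 to 0.64). For tyrosine YARS exceeded YARS2 by 0.29 (0.14 to 0.44), and for isoleucine IARS exceeded IARS2 by 0.19 (0.13 to 0.26). The other 4 pairs with intervals above 0 were those of tryptophan, asparagine, histidine and threonine. For leucine and methionine the difference was -0.01 (-0.13 to 0.11) and -0.06 (-0.31 to 0.19), so the partners did not differ detectably at this depth.

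**Figure D3:**
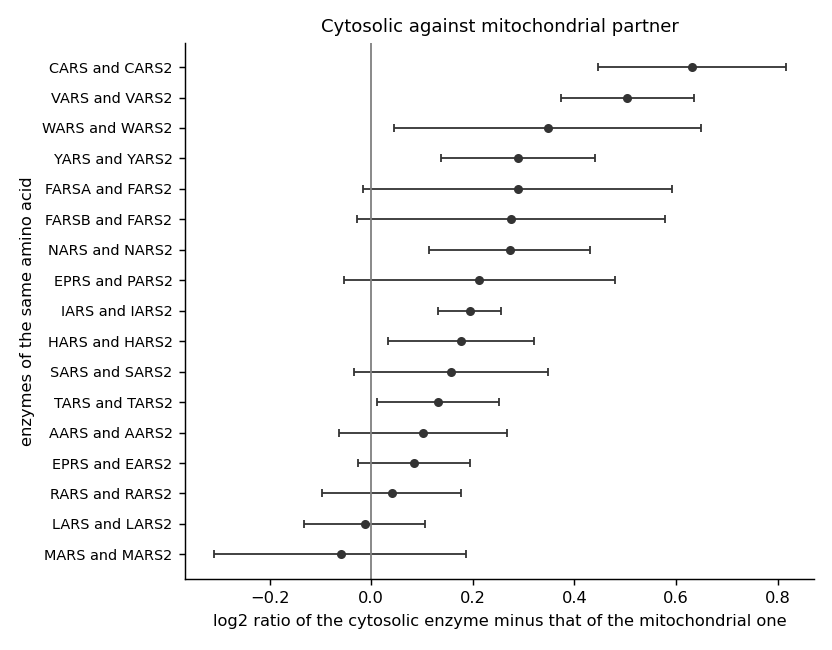
Difference in log2 ratio (floating over adherent) between the cytosolic and the mitochondrial enzyme of the same amino acid (x axis), by pair (y axis), with exact conditional 95% counting intervals. The interval lies above 0 in 8 of 17 pairs, with CARS and CARS2 at 0.63 the farthest apart.

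Within the pairs the abundance of the cytosolic over the mitochondrial transcript, on the TPM scale, varied widely. MARS was 30.2 times MARS2 in floating and 31.5 times in adherent cells. YARS was 1.22 times YARS2 in floating and 1.00 times in adherent cells, so the enzymes for tyrosine were the most evenly matched in the adherent library. IARS was 1.22 times IARS2 in floating and 1.07 times in adherent cells.

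HARS and HARS2 are neighbours that start on opposite strands. In RefSeq on GRCh38.p14 84 bases lie between their start sites, at chr5:140691371-140691454, and that stretch is shown, on the HARS2 strand, because both genes are read outward from it.
HARS2: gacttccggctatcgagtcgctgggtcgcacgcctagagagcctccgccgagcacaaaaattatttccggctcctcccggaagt
From these neighbouring starts, HARS had 2359 reads in floating and 1915 in adherent cells, and HARS2 had 1339 in floating and 1229 in adherent cells. Their log2 ratios, 0.26 and 0.08, differed by 0.18 (interval 0.03 to 0.32). Their exons also overlap in the annotation, and the use of strand is unknown here too.

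The synthetase genes known, largely from work on mouse cells, as ATF4 targets were listed apart from the others. All 13 of that list (AARS, CARS, EPRS, GARS, IARS, LARS, MARS, NARS, SARS, TARS, VARS, WARS and YARS) had intervals above 0, and 10 passed the 1.2-fold rule. Their median log2 ratio was 0.39, with a range from 0.16 to 0.50. The other 8 genes that serve the cytosol (DARS, FARSA, FARSB, HARS, KARS, QARS, RARS and TARSL2) had 6 intervals above 0, 1 below, 2 past the 1.2-fold rule and a median of 0.21. Their range, from -0.20 to 0.31, overlaps that of the first list. Over all tested genes the shares were 25.9% with intervals above 0, 25% below, and 12.3% higher by the 1.2-fold rule. The ATF4 list was drawn up with the ratios of other ATF4 targets in these libraries known, so its direction is no independent evidence.

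Transcripts of the ATF4 programme outside the synthetases were also higher in floating cells. ATF4 itself was at 484 TPM in floating and 408 TPM in adherent cells, 1.23-fold higher (interval 1.18 to 1.27). Of 21 listed genes, 20 were tested, with 17 intervals above 0, 0 below and a median log2 ratio of 0.49. Of all tested genes, 25.9% had intervals above 0 and 25% below. Earlier results of these data were known for this list too, so its direction is no independent evidence either. ASNS, asparagine synthetase, which makes the amino acid that NARS charges, was 1.32-fold higher, and PSAT1, of serine synthesis, 1.58-fold higher. The cystine transporter gene SLC7A11, at 30.0 TPM in floating and 31.6 TPM in adherent cells, had a log2 ratio of -0.03 with an interval that included 0.

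Promoter windows from 250 bases before to 50 bases after the start were found in RefSeq (GRCh38.p14) for 30 of the 37 members. The windows were searched on both strands for TGATGCAA, the composite element that ATF4 binds with C/EBP partners, and for its looser form TGATGNAA, which includes it. TGATGCAA was in the window of 6 members, all of them cytosolic and on the ATF4 list: AARS, CARS, IARS, MARS, NARS and TARS. The same letters were in 0.866% of all 35116 windows, or in 1.08% of genes with a window, tested here or not. TGATGNAA was found also in GARS and in YARS2, and in 3.62% of all windows, or in 4.46% of genes with a window. The matches of AARS and YARS2, which lie farther from the start, are not printed. The short stretches around the matches in CARS, GARS, IARS, MARS, NARS and TARS are shown because they hold the searched element. The match is in capitals, and each stretch is on its gene's own strand.
CARS: gggcggcggTTGCATCAgattctagg
GARS: acgcggcgaTTTCATCAtgctccgag
IARS: ttcagcgcgTTGCATCAcctccgtgc
MARS: cggttccggTTGCATCAgcgagggat
NARS: tacgctctcTGATGCAAcgccggaat
TARS: gcctttcgaTTGCATCAgctggtcca

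In 5 of these 6 stretches the element reads in the reverse direction, as TTGCATCA or, in GARS, TTTCATCA, and in NARS it reads forward. The stretches lie on GRCh38.p14 at chr11:3057409-3057434 (CARS, minus strand) and chr7:30594836-30594861 (GARS, plus). Those of IARS, MARS, NARS and TARS lie at chr9:92293694-92293719 (minus), chr12:57488055-57488080 (plus), chr18:57621806-57621831 (minus) and chr5:33440958-33440983 (plus). Counted from the start site, the match began at -197 in YARS2 and -187 in AARS. In GARS it began at -33, counted from the second listed start. The match began close to the start at -13 in IARS, -4 in MARS, -2 in CARS, 3 in TARS and 15 in NARS. CARS, GARS and TARS have a second listed start each, and in each of them a single window held the match.

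Beside the data, the 6 genes with TGATGCAA had log2 ratios from 0.18 (IARS) to 0.49 (CARS), with a median of 0.34. The 8 other cytosolic genes with a window had a median of 0.26, and they include SARS and WARS, which were among the farthest above 0. Within the ATF4 list the order was reversed. The 4 genes of that list with a window but without TGATGCAA had a median of 0.46. Genes with and without the letters therefore overlapped in their ratios.

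**Figure D4:**
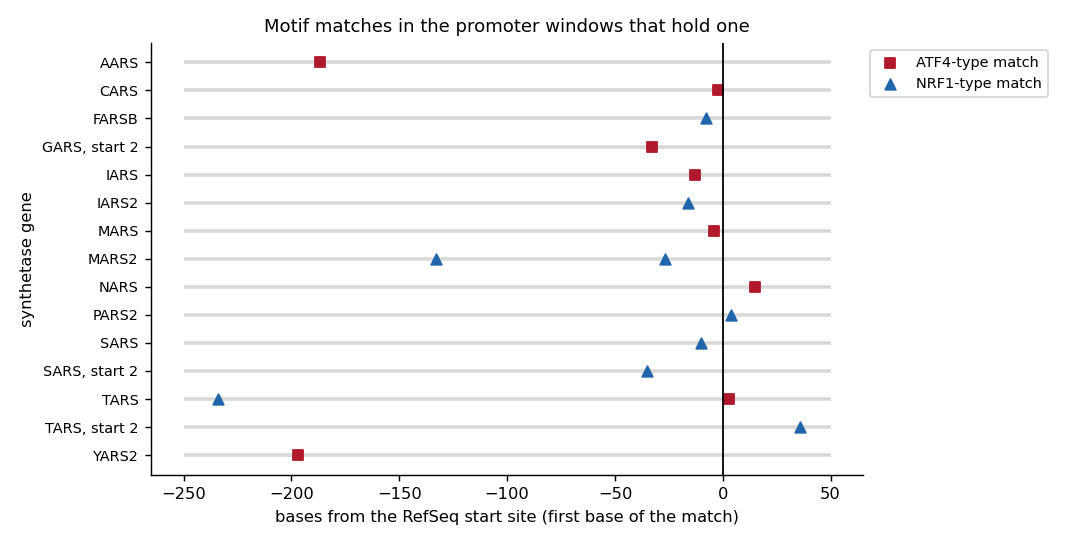
Position of the first base of each motif match relative to the RefSeq start site (x axis, bases) in the promoter windows that hold one (y axis, a second listed start being named as such). Red squares mark TGATGNAA and blue triangles the core of the NRF1 element. The TGATGNAA match begins within 33 bases of the start in GARS (second listed start), IARS, MARS, CARS, TARS and NARS. It begins at -187 in AARS and at -197 in YARS2.

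The core of the element bound by NRF1, a factor of nuclear genes for mitochondrial proteins, was searched on both strands too. It was in the windows of 6 members and in 5.78% of all windows, or in 6.98% of genes with a window. That share covers all 27305 genes with a window, many of them not among the 13131 tested. Of the 1905 genes that held the core, 1414 were tested genes outside the synthetases, so the share among tested genes is higher. Of the 6 members 3 were cytosolic (FARSB, SARS and TARS) and 3 mitochondrial (IARS2, MARS2 and PARS2). MARS2, the mitochondrial gene with the largest ratio, held 2 matches, at -133 and -27, while IARS2, whose interval included 0, held 1 at -16. The 250 bases before the start of MARS2 (chr2:197705119-197705368, plus strand) are shown with both matches in capitals.
MARS2: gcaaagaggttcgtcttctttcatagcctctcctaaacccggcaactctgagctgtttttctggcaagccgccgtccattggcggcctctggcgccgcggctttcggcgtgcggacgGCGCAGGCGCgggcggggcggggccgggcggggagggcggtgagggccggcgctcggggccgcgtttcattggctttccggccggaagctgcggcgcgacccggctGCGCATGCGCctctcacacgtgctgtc

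Class and complex membership were compared next. The 18 class I enzymes had a median log2 ratio of 0.18 and 6 past the 1.2-fold rule, and the 18 class II enzymes a median of 0.26 and 7 past it, with EPRS left out because it holds a domain of each class. The same rule called 12.3% of all tested genes higher. Each class pools both compartments, and within a compartment the order was reversed. For enzymes of the cytosol alone the middle ratio was 0.39 (VARS) in class I and 0.26 (FARSB) in class II. For mitochondrial enzymes it was 0.14 (WARS2) in class I and 0.10 (NARS2) in class II. The 8 synthetases of the multi-synthetase complex (DARS, EPRS, IARS, KARS, LARS, MARS, QARS and RARS) had a median of 0.17 and ranged from -0.20 (QARS) to 0.42 (MARS). The scaffold proteins of that complex were not uniform either. EEF1E1 was at 99.7 TPM in floating and 75.6 TPM in adherent cells, 1.36-fold higher (log2 interval 0.32 to 0.58). AIMP2, at 81.4 TPM in floating and 73.2 TPM in adherent cells, was 1.15-fold higher (1.05 to 1.25), and AIMP1, at 38.3 TPM in floating and 37.9 TPM in adherent cells, had an interval that included no difference.

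Elongation factors, which include the carriers of charged tRNA, their exchange factors and the factors that move or recycle the ribosome, were listed by compartment. Of 6 cytosolic elongation factor genes, 1 had an interval above 0 and 3 had one below, and the median log2 ratio was -0.06. Over all tested genes the shares were 25.9% above and 25% below. EEF2, the translocase, was at 1754 TPM in floating and 2060 TPM in adherent cells (log2 ratio -0.18), and EEF1D, an exchange factor subunit, was the one with an interval above 0 (0.09). EEF1A1, which delivers charged tRNA, was at 6395 TPM in floating and 7041 TPM in adherent cells (log2 ratio -0.09), and its relative EEF1A2 had a log2 ratio of -0.03 with an interval that included 0. With 283771 reads in floating and 292759 in adherent cells, EEF1A1 has so narrow an interval that even this small ratio excludes 0. Of 4 mitochondrial elongation factor genes, 3 had intervals above 0 and 0 below, with a median of 0.19, from 0.10 (TSFM, an exchange factor, with an interval that included 0) to 0.33 (GFM1, a translocase). TUFM, the mitochondrial carrier of charged tRNA, had a log2 ratio of 0.21. The single-gene ranges of both compartments nearly meet, at 0.09 (EEF1D) and 0.10 (TSFM).

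**Figure D5:**
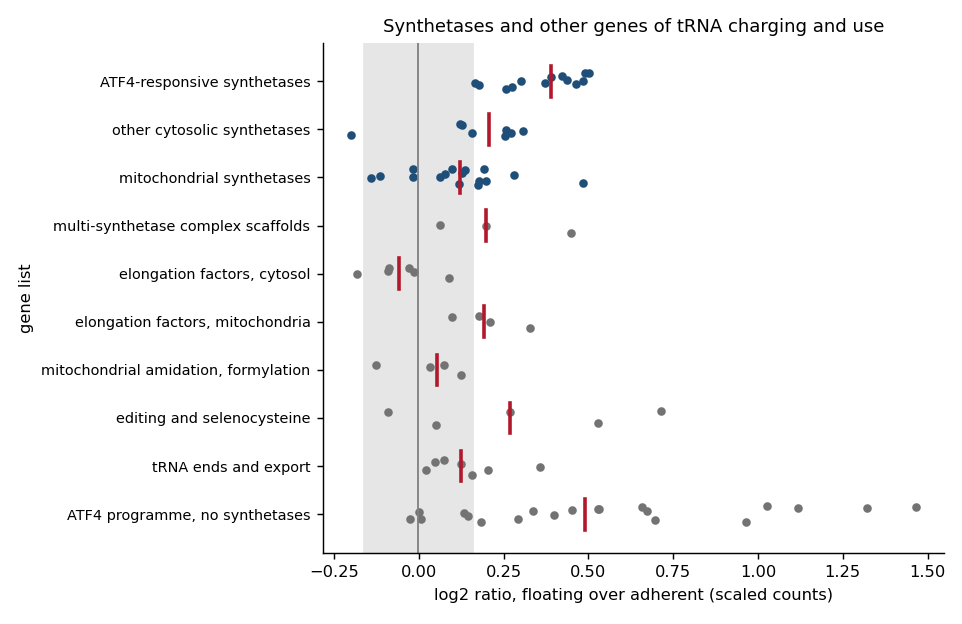
Log2 ratio of floating over adherent (x axis) for each tested gene in the synthetase lists (blue points) and in lists of related genes (grey points), by list (y axis), with list medians as red bars and the middle 50% of all tested genes shaded. Medians run from -0.06 for cytosolic elongation factors to 0.39 for ATF4-responsive synthetases and 0.49 for the rest of the ATF4 programme.

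Other enzymes that act on tRNA or on its charge showed mixed values. The counts below stand beside 25.9% of all tested genes with intervals above 0 and 25% with intervals below. GATB, GATC and QRSL1, which amidate mischarged mitochondrial glutamine tRNA after EARS2 has loaded it with glutamate, and MTFMT, which formylates the methionine loaded by MARS2, had a median log2 ratio of 0.05, with 0 intervals above 0. GATC was the one with an interval below 0, at 23.6 TPM in floating and 26.6 TPM in adherent cells (-0.13). Among 5 editing and selenocysteine genes, 3 had intervals above 0 and the median was 0.27. AARSD1, which clears serine misloaded on alanine tRNA and whose estimates have decimals, was 1.44-fold higher (interval 1.25 to 1.66). PSTK, a kinase of selenocysteine synthesis, was 1.64-fold higher on 68 reads in floating and 40 reads in adherent cells (log2 interval 0.14 to 1.32), and SEPSECS, which acts after it, had a log2 ratio of -0.09. Of 7 genes of tRNA end processing and export, 4 had intervals above 0 and 0 below, from TRMT10C (0.02) to the CCA-adding enzyme TRNT1 (0.36), which was at 29.02 TPM in floating and 23.4 TPM in adherent cells.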

How the data were processed

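Poly(A) RNA of floating and adherent A427 cells was sequenced in 1 library each. RSEM 1.3.3, STAR 2.5.3a and FastQC 0.11.1 are named in the submitters' processing notes, as is the build hg19; the annotation, settings and use of strand were not given in these sources. The authors deposited estimated counts per gene, without normalization, and TPM, scaled to 1000000 per library. Columns were assigned by name, which is the sample's title.

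Estimated counts were rounded and scaled by TMM in edgeR 4.0.16 under R 4.3.3, with a prior count of 0.5, over genes of at least 1 CPM in one library. Intervals are exact Clopper-Pearson intervals given a gene's summed reads; for pairs of genes they are exact conditional intervals of the odds ratio. Since PCR reads carry no molecular identifiers and are not independent, these intervals, and the limit of 3 reads for a count of 0, cover counting error only. Among members the upper bound lies from 2.68% to 22.5% above the fold, by depth. No test was run, and the calculation was checked on simulated counts. Other steps ran in Python 3.11.15 (scipy 1.17.1, statsmodels 0.14.6, numpy 2.4.6, pandas 2.3.3).

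Members and lists were chosen with earlier results of these data known. All members are named. Full values are given for the 6 farthest above 0 by the interval bound nearest to 0 and for those below 0 (4 of at least 10 CPM), and for KARS and GARS. Other details were chosen after values were seen. Promoter windows are RefSeq's, on GRCh38.p14, matched by symbol or older symbol, and 37 of 39 windows read in the sense of a GENCODE v29 transcript. Exon overlaps come from GENCODE v29. Alternatives were scaling by the upper quartile, by library totals or by size factors of DESeq2 1.42.0, log2 of TPM + 0.1, a prior of 5 reads, a filter at 5 CPM or none, no interval, 1.5-fold, whole-number estimates, the mean, and removal of a length trend. Removal of a GC trend and leaving out members under 10 CPM were added after the data were seen.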

Additional observations from a re-analysis of the deposited data

How the results depend on the processing

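The counts and medians of the synthetases kept their direction under the alternatives run. The number of members at least 1.2-fold higher ran from 11 (upper quartile) to 14. Members below 0 numbered 5 once no interval was required, against 2 with one. The median log2 ratio ran from 0.22 (TPM) to 0.28 for cytosolic and from 0.07 (TPM) to 0.13 for mitochondrial enzymes, where all genes had a median of -0.05 on TPM. Of 37 members 36 kept their sign, and IARS2 did not. The log2 ratios of 9 members on TPM, and of 3 once the length trend was removed, fell outside their main counting intervals. Those intervals therefore do not cover the choice of processing. GC content was known for 92.3% of tested genes. No paired analysis was possible because each growth form has 1 library and the labels give no replicate number, and no library could be left out.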

Other observations

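Outside the synthetases, 67 tested genes held TGATGCAA in a promoter window. Their median log2 ratio of floating over adherent was 0.04, and 19.4% of them were at least 1.2-fold higher with an interval above 0, beside 12.3% of all tested genes. For 268 tested genes with the looser TGATGNAA the median was 0.03 and the share 20.5%. For 1414 with the core of the NRF1 element the values were 0.01 and 10%. The share that was lower was not counted for these sets. Any genes of the ATF4 programme were left in them, so the sets are not separate from that list.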
